A study of Homo sapiens with 6 samples.

Results

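The 10 epithelial adhesion genes described here were the rows of the count table whose Ensembl identifiers map to the adherens junction genes CDH1, CTNNA1, CTNNB1 and CTNND1, to EPCAM, and to the desmosome genes DSG2, DSP, JUP, PKP2 and PKP3. All 10 were found among 60656 genes in the table, and all 10 had enough counts to be tested, out of 10863 genes tested. RNA was measured in parental ZR-75-1 cells, an oestrogen receptor-positive human breast cancer line, given DMSO (3 libraries) or the CDK4/6 inhibitor abemaciclib at 500 nM (3 libraries) for 4 days, in the same medium. The labels name no engineered allele in these cells, and the line is a single model. The study's methods describe the replicates of such ZR-75-1 experiments as independent and the experiment as performed once.

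Adherens junctions and desmosomes hold epithelial cells together through cadherins, whose tails bind armadillo proteins inside the cell. In the adherens junction, E-cadherin binds β-catenin and p120-catenin, and α-catenin links the complex to actin. In the desmosome, desmogleins and desmocollins bind plakoglobin and plakophilins, and desmoplakin ties them to keratin filaments, the cytoskeleton of luminal breast cells. EPCAM is an epithelial surface glycoprotein outside both structures that is widely used as an epithelial marker.

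With abemaciclib, mRNA of desmoplakin (DSP), desmoglein 2 (DSG2) and α-catenin (CTNNA1) was lower relative to the rest of the library. No member was called higher. DSP fell to 0.684 times its DMSO level, DSG2 to 0.663 times and CTNNA1 to 0.743 times. The other 7 members did not pass the test, among them the cadherin CDH1 and the armadillo genes CTNNB1 and JUP, whose values with abemaciclib nevertheless all lay above their values with DMSO. By the quasi-likelihood test of edgeR (adjusted p below 0.05), the call was lower for 3 of the 10 and higher for 0, although 2 had higher values with an unadjusted p below 0.05 and DESeq2 called 1, CDH1, higher. Over all genes tested, 13.3% were called lower and 12.5% higher. Members had a median log2 fold change of −0.23, against −0.0018 for all genes tested, a value that depended on the libraries, being −0.35 without DMSO replicate 1 and −0.06 without DMSO replicate 3. In bulk RNA, fewer cells with a transcript and less of it per cell cannot be told apart. Levels are relative to the other genes of a library, so amounts per cell were not measured.

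Total counts per library were between 3317860 and 4013156. Levels are given as CPM, that is, counts divided by the library's total over the genes tested and by its TMM factor. A 3′ mRNA library yields about 1 read per transcript whatever its length, so CPM needs no length correction. Levels can be set side by side between genes only roughly, as the strand setting is unknown and other annotated genes overlap some. MKI67, a proliferation marker, fell from 525.8 ± 31.4 CPM with DMSO to 5.00 ± 2.28 CPM with abemaciclib (SD, n = 3 in each group; log2 fold change −6.71, adjusted p = 4.61e-22 from edgeR). The luminal markers KRT8, KRT18, KRT19, GATA3, FOXA1 and ESR1 were all detected, with a summed level of 6539 to 7106 CPM with DMSO and 7423 to 8527 CPM with abemaciclib. Of them, KRT19 (0.45) and ESR1 (0.83) were higher and KRT18 (−0.35) lower, in log2 fold change. Basal and myoepithelial markers summed to 7.54 to 15.4 CPM with DMSO and 0.493 to 2.97 CPM with abemaciclib, mostly from ACTA2, with KRT5, KRT14 and TP63 at 0 in every library. ACTA2, with 107 counts in all, was lower (log2 fold change −2.82, adjusted p = 0.000191 from edgeR). It was removed, and so not tested, with a minimum of 10 counts in every library. Fibroblast markers summed to 10.4 to 15.8 CPM with DMSO and 10.4 to 15.7 CPM with abemaciclib, nearly all from COL1A1. Leukocyte and endothelial markers each stayed under 2 CPM in every library.

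**Figure D1:**
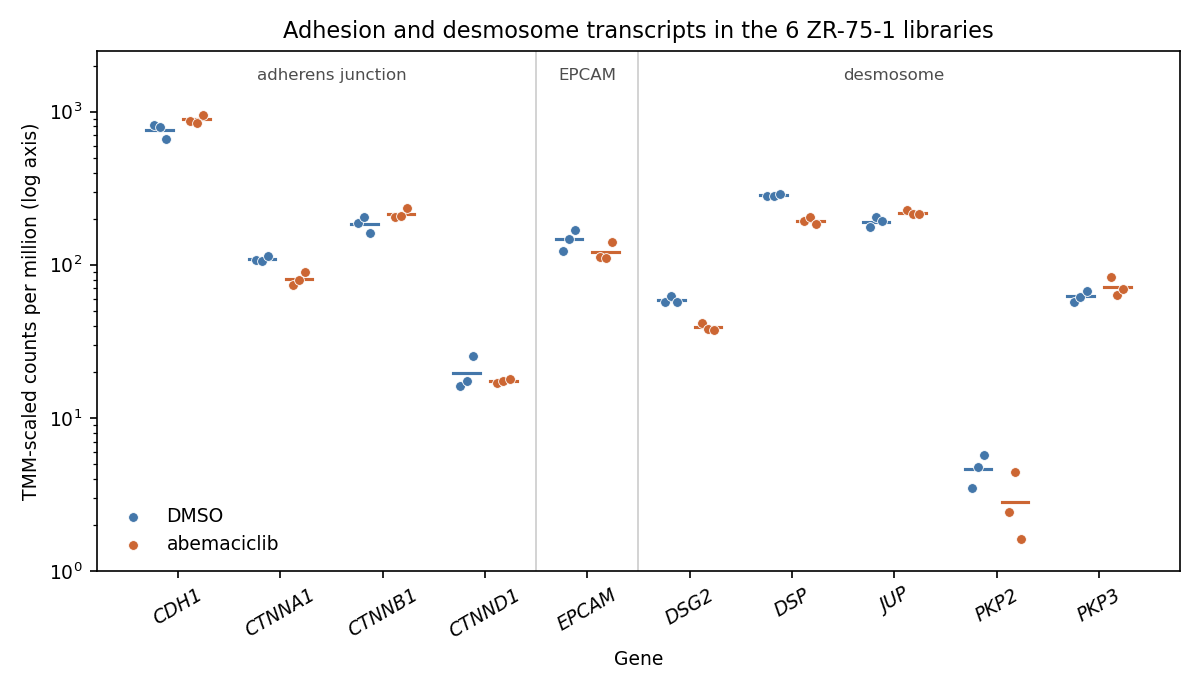
TMM-scaled CPM (log axis) of each gene in each library, DMSO in blue and abemaciclib in orange, with a line at the mean of 3 libraries. DSP, DSG2 and CTNNA1 lie lower in every abemaciclib library, CDH1, CTNNB1 and JUP slightly higher, and PKP2 is near the floor in both groups.

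Among the desmosome genes, the largest number of counts belonged to DSP, which encodes the plakin that anchors keratin filaments (chromosome 6 of GRCh38, 7541338 to 7586714). DSP stood at 282, 282 and 290.2 CPM in the DMSO libraries and at 194, 204 and 185 CPM in the abemaciclib libraries. The groups did not overlap, and the gap of means, from 284 ± 4.94 to 194 ± 9.48 CPM (SD, n = 3 in each group), was several times the spread within either group. Its log2 fold change was −0.55 (standard error 0.10, 95% interval −0.75 to −0.35, adjusted p = 8.54e-05 from edgeR).

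DSG2, the desmosomal cadherin that simple epithelia use (chromosome 18, 31498177 to 31549008), was at 57.4, 62.4 and 57.2 CPM with DMSO and at 41.8, 38.2 and 37.6 CPM with abemaciclib. Every treated library was again below every control. Mean levels were 59.0 ± 2.91 and 39.2 ± 2.25 CPM (SD, n = 3 in each group). This corresponds to a log2 fold change of −0.59 (standard error 0.15, 95% interval −0.90 to −0.29, adjusted p = 0.00385 from edgeR). Leaving out each library in turn, the change of DSP stayed between −0.58 and −0.51 and that of DSG2 between −0.64 and −0.55, with the call kept each time.

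JUP encodes plakoglobin, the armadillo protein found in both junction types (chromosome 17, 41754604 to 41786931). Its levels were 176, 205 and 194 CPM with DMSO and 228, 214 and 215 CPM with abemaciclib. The lowest treated library exceeded the highest control by less than the spread among the controls, and the log2 fold change of 0.19 (95% interval −0.02 to 0.40) did not pass the threshold (adjusted p = 0.179 from edgeR). A rise of more than 1.32-fold in JUP therefore lies outside this interval.

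The plakophilins, armadillo proteins of the desmosomal plaque, were measured at very different depths. PKP3 (chromosome 11, 392614 to 404908) had 57.4, 61.2 and 67.8 CPM with DMSO and 82.6, 63.4 and 69.4 CPM with abemaciclib. These groups overlapped, with abemaciclib replicate 1 highest (log2 fold change 0.21, 95% interval −0.08 to 0.49, adjusted p = 0.312), and without that library the log2 fold change was 0.098. PKP2 (chromosome 12, 32790745 to 32896798) had only 12, 16 and 19 counts in the DMSO libraries and 8, 18 and 6 in the abemaciclib libraries. With 79 counts in all, its log2 fold change of −0.70 had a 95% interval from −1.75 to 0.35 (adjusted p = 0.352), so a fall as large as that of DSG2 was not detectable at this depth. The estimate was −1.20 without abemaciclib replicate 2 and −0.42 without abemaciclib replicate 3.

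In the adherens junction, CDH1, which encodes E-cadherin (chromosome 16, 68737292 to 68835537), was the most abundant of the 10 transcripts and lay at the 98.7th percentile of the genes tested by its level. Its values were 816, 789 and 661 CPM with DMSO and 872, 843 and 957 CPM with abemaciclib. No treated library fell within the range of the controls, whose spread was set by DMSO replicate 3. The means of 755 ± 83.2 and 891 ± 59.2 CPM (SD, n = 3 in each group) gave a log2 fold change of 0.24 (95% interval 0.04 to 0.43), which missed the threshold (adjusted p = 0.0648 from edgeR). The adjusted p of CDH1 was 0.0476 with DESeq2 and between 0.0605 and 0.342 in the other alternatives, the highest being without DMSO replicate 3, where the log2 fold change was 0.15.

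CTNNB1 encodes β-catenin, which binds the E-cadherin tail and also acts in Wnt signalling (chromosome 3, 41194741 to 41260096). It was at 188, 204 and 160.2 CPM with DMSO and at 205, 208 and 235 CPM with abemaciclib. The groups did not overlap, though the lowest treated library exceeded the highest control by about 1 CPM, and the log2 fold change of 0.23 (95% interval 0.01 to 0.45) did not pass the threshold (adjusted p = 0.123 from edgeR). It was 0.14 (adjusted p = 0.45) without DMSO replicate 3.

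CTNNA1, the gene of αE-catenin, the link from β-catenin to actin (chromosome 5, 138610967 to 138935034), moved the other way. It had 108, 105 and 113 CPM with DMSO and 73.5, 79.7 and 89.2 CPM with abemaciclib. Every treated library was below every control, and the means were 109 ± 4.04 and 80.8 ± 7.88 CPM (SD, n = 3 in each group). The log2 fold change was −0.43 (standard error 0.12, 95% interval −0.68 to −0.18, adjusted p = 0.00912 from edgeR), and across all alternatives its adjusted p was between 0.0017 and 0.046.

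CTNND1, which encodes p120-catenin, the partner of the membrane-proximal part of the E-cadherin tail (chromosome 11, 57753243 to 57819546), had 16.2, 17.5 and 25.4 CPM with DMSO and 16.9, 17.3 and 17.8 CPM with abemaciclib. All 3 treated libraries lay inside the range of the controls, in which DMSO replicate 3 stood apart from the other two. The log2 fold change was −0.18 (95% interval −0.67 to 0.30, adjusted p = 0.628) and changed sign, to 0.04, without that library, while it was −0.31 without DMSO replicate 1. An annotated readthrough gene on the same strand shares 39.1% of the exonic bases of CTNND1, up to 1115 bases before the end of the gene, and was listed at 0 in all libraries. Reads in the shared part may be assigned to neither gene, so the level of CTNND1 is uncertain.

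EPCAM (chromosome 2, 47345158 to 47387601) was at 122, 148 and 169 CPM with DMSO and at 113, 111 and 140.5 CPM with abemaciclib. Abemaciclib replicate 3 lay within the range of the controls, and the log2 fold change of −0.27 (95% interval −0.52 to −0.01) did not pass the threshold (adjusted p = 0.123 from edgeR). EPCAM was called lower without DMSO replicate 1 (log2 fold change −0.38, adjusted p = 0.0481) and without abemaciclib replicate 3 (−0.38, adjusted p = 0.0106), and its log2 fold change was −0.15 (adjusted p = 0.495) without DMSO replicate 3. For the 10 genes, no exon of another annotated gene covers any of the last 1000 exonic bases of the canonical transcript, where 3′ reads are expected to fall.

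**Figure D2:**
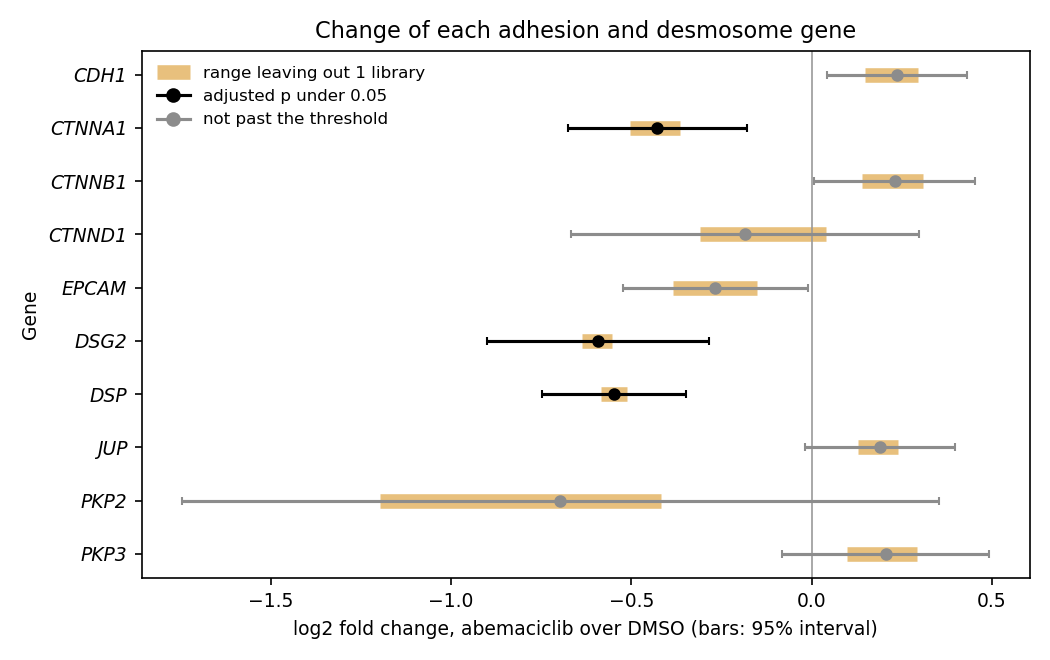
Log2 fold change of each gene with its 95% interval (edgeR), black where the adjusted p was under 0.05, and the range of the estimate when each library was left out in turn (tan). The unadjusted intervals of DSP, DSG2, CTNNA1 and EPCAM lie below 0 and those of CDH1 and CTNNB1 above 0, the other 4 cross 0, and that of PKP2 is the widest.

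Counted by whether the groups overlapped, 3 of the 10 members (CDH1, CTNNB1 and JUP) had every abemaciclib library above every DMSO library, and 3 (CTNNA1, DSG2 and DSP) had every abemaciclib library below. Over all genes tested these shares were 19.1% and 20.1%. The summed level of the 10 genes overlapped between the groups, at 1744 to 1879 CPM with DMSO and 1784 to 1948 CPM with abemaciclib. Within that sum, the 5 desmosome genes took 31.5%, 32.7% and 35.3% in the DMSO libraries and 29.99%, 29.4% and 26.1% in the abemaciclib libraries. The 4 adherens junction genes took 61.8%, 59.4% and 55.0% with DMSO and 63.8%, 64.4% and 66.7% with abemaciclib, mostly CDH1. These shares are a description of the chosen genes and carry no test.

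The order of the levels changed at one place. With DMSO, DSP was second to CDH1, above JUP and CTNNB1 without overlap. With abemaciclib it came after both of them, its highest library at 204 CPM lying just under the lowest library of CTNNB1 (205 CPM) and under that of JUP (214 CPM). JUP and CTNNB1 overlapped in both groups, and EPCAM overlapped CTNNB1 under DMSO. Below them came EPCAM, CTNNA1, PKP3, DSG2, CTNND1 and PKP2 in both groups, with PKP3 overlapping DSG2 under DMSO and CTNNA1 under abemaciclib.

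Ratios within a library do not depend on its scaling. There were 0.572, 0.517 and 0.707 counts of CTNNA1 per count of CTNNB1 in the DMSO libraries and 0.358, 0.383 and 0.380 in the abemaciclib libraries, so α-catenin mRNA was lower relative to β-catenin mRNA in every treated library. For DSG2 per count of CDH1, the cadherins of the desmosome and the adherens junction, the ratio was 0.0703, 0.0791 and 0.0867 with DMSO and 0.0479, 0.0454 and 0.0392 with abemaciclib, also without overlap. Both differences follow from the levels above, where CTNNA1 and DSG2 lay below and CTNNB1 and CDH1 above every control. They are no separate result, and the ratios carry no test. The armadillo pair JUP to CTNNB1 had ratios of 0.934, 1.00 and 1.21 with DMSO and 1.11, 1.03 and 0.915 with abemaciclib, which overlapped. CTNND1 to CDH1 and PKP2 to PKP3 overlapped as well, at a mean of 0.0269 ± 0.0101 against 0.0195 ± 0.000926 and 0.0744 ± 0.0124 against 0.0409 ± 0.0254 (SD, n = 3 in each group).

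**Figure D3:**
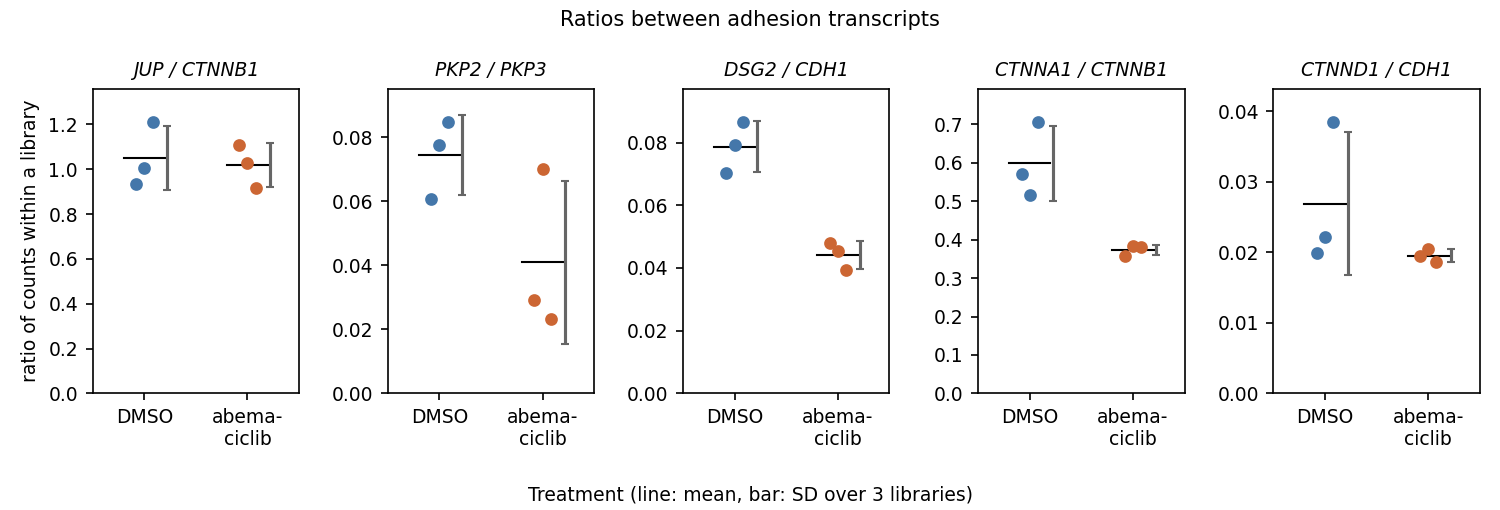
Ratios of the counts of paired adhesion genes within each library, with the mean as a line and the SD over 3 libraries as a bar, each axis starting at 0. CTNNA1 to CTNNB1 and DSG2 to CDH1 are lower in all 3 abemaciclib libraries, and the other 3 ratios overlap.

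Promoter windows from RefSeq (GRCh38.p14, 250 bases before to 50 after the start) were held for 5 of the 10 genes: CTNNA1, CTNNB1, DSG2, DSP and JUP. CDH1, CTNND1, EPCAM, PKP2 and PKP3 had none. The 250 bases before the start are shown for the genes that fell, written 5′ to 3′ on the gene's strand, with the E-box CACCTG or its reverse complement CAGGTG in capitals. They lie at chr6:7541421-7541670 (DSP), chr18:31497927-31498176 (DSG2) and chr5:138753175-138753424 (CTNNA1), all on the plus strand.
DSP: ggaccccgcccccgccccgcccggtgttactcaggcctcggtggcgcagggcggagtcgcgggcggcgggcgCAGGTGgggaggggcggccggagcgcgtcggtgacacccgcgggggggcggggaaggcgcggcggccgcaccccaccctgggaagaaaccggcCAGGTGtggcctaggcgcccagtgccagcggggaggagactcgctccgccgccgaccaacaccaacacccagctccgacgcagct
DSG2: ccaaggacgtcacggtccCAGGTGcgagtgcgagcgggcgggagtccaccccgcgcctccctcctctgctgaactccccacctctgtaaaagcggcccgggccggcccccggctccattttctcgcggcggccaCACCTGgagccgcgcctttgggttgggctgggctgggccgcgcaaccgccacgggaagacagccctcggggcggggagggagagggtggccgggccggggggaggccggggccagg
CTNNA1: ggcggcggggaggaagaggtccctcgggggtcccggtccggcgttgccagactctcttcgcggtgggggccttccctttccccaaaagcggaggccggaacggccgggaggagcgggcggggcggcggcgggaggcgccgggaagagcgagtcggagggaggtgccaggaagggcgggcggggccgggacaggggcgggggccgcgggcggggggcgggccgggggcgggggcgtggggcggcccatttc

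The windows of DSP and DSG2 each held 2 E-boxes, starting 178 and 85 bases before the start in DSP and 232 and 116 bases before it in DSG2. Of 35116 promoter windows, 20.6% held at least 1 E-box on either strand and 3.49% held 2 or more. CTNNA1 had none in any of its 4 windows, CTNNB1 none in its 1 window, and JUP none at its canonical start but 2 at another annotated start. The GC box GGGCGG (or CCGCCC) occurred 8 times in the 300-base window of DSP, 2 times in that of DSG2 and 9 times in that of CTNNA1 shown above, and in 45.0% of all windows. It shared no base with an E-box. The E2F-like motif TTCGCGC (or GCGCGAA), found in 2.24% of windows, was in none of the 9 windows of these genes, and the CHR element TTTGAA (or TTCAAA), found in 15.2%, was in 1 window of CTNNA1 away from its canonical start. A match of letters is not a measured binding site. Among the E-box-binding repressors of CDH1, SNAI2, ZEB2 and TWIST2 were at 0 in every library, SNAI1 had 8 counts and ZEB1 15 counts over all 6 libraries. TWIST1, with 51, 55 and 40 counts in the DMSO libraries and 65, 28 and 28 in the abemaciclib libraries, at 14.4 ± 2.14 CPM with DMSO and 11.4 ± 7.18 CPM with abemaciclib (SD, n = 3 in each group), was not called (log2 fold change −0.36, adjusted p = 0.47), though it was called lower without abemaciclib replicate 1.

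Beyond the 10 members, 45 other junction genes were set beside them, of which 36 were tested. Of these, 6 were higher (16.7%) and 7 lower (19.4%), near the 12.5% and 13.3% of all genes, with a median log2 fold change of 0.10. Without DMSO replicate 3 only 3 were higher, as PLEC, SPINT2 and ST14 were lost. The lists that follow split these 36 genes and are to be read beside the same shares of all genes. So few genes carry no result about a list.

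Of 11 other desmosome genes, 5 were tested, with 2 lower and 0 higher (0 also without adjustment at p below 0.05, and 0 by DESeq2). The other 3 tested, named after their values were seen, had positive log2 fold changes and were not called (EVPL 0.22, KAZN 0.35 and PPL 0.05). Every abemaciclib library of EVPL lay above every DMSO library. The median log2 fold change of the 5 was 0.05. DSC2, the desmocollin that pairs with DSG2, had 15.1, 19.6 and 20.9 CPM with DMSO and 9.08, 11.3 and 7.84 CPM with abemaciclib, a log2 fold change of −0.97 (adjusted p = 0.00852). PERP, a tetraspan protein of desmosomes and a p53 target, fell by 0.39 (log2, adjusted p = 0.00538), from 219 ± 7.79 to 168 ± 10.8 CPM (SD, n = 3 in each group). DSG1, DSG3, DSG4 and DSC1, cadherins of stratified epithelia, were at 0 in every library. DSC3 had 6, 8 and 2 counts in the DMSO libraries and 0 in each abemaciclib library, too few for the low-count filter, and was called lower when that filter was not used.

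Of 17 other adherens junction genes, 15 were tested, with 2 higher and 4 lower. Among the nectins, immunoglobulin-like adhesion proteins, NECTIN4 (log2 fold change 0.63, adjusted p = 0.00107) and NECTIN2 (0.61, adjusted p = 0.000191) rose. NECTIN1, named after its values were seen, was not called (0.20, adjusted p = 0.41). NECTIN3, at 9.33 ± 2.60 CPM with DMSO and 2.36 ± 1.27 CPM with abemaciclib (SD, n = 3 in each group), fell by 1.94 (adjusted p = 0.00273). With a minimum of 10 counts in every library NECTIN3 was removed and not tested, as it had 3 counts in abemaciclib replicate 1. CTNND2, δ-catenin and a relative of p120-catenin, fell by 1.43 (adjusted p = 2.15e-05), LMO7, an afadin- and α-actinin-binding protein, by 1.14 (adjusted p = 7.08e-05), and CDH3, P-cadherin, by 0.69 (adjusted p = 0.000306). CDH3 stood at 93.6 ± 12.3 CPM with DMSO and 58.2 ± 4.71 CPM with abemaciclib (SD, n = 3 in each group). CDH1 beside it was not called by edgeR, though every treated library lay above every control and DESeq2 called it higher.

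Hemidesmosomes fix keratins to the basement membrane and share the plakin family with desmosomes. Of 9 genes, 8 were tested. ITGB4, integrin β4, fell by 1.23 (adjusted p = 0.000251) and PLEC, plectin, passed the threshold upwards with overlapping groups (log2 fold change 0.37, adjusted p = 0.0475), a call that was lost in 8 of 12 alternatives.

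Of 8 relatives, partners and proteases of EPCAM, 3 were higher and 0 lower (1 was lower without adjustment at p below 0.05, and 0 by DESeq2). The former was CLDN7, a claudin that binds EPCAM, named after its values were seen (log2 fold change −0.28, adjusted p = 0.0522), which was called lower with total counts as the only scaling, with at least 10 counts in every library and without abemaciclib replicate 2. Every abemaciclib library of CLDN7 lay below every DMSO library. SPINT1 (log2 fold change 0.57, adjusted p = 0.0047) and SPINT2 (0.33, adjusted p = 0.0105), which inhibit the serine protease matriptase, were higher together with ST14, the matriptase gene itself (0.32, adjusted p = 0.0419). The call of ST14 was lost in 8 of 12 alternatives, and that of SPINT2 without DMSO replicate 2 or without DMSO replicate 3. Other annotated genes cover part of the 3′ ends of SPINT2 and CLDN7, which leaves their counts uncertain.

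**Figure D4:**
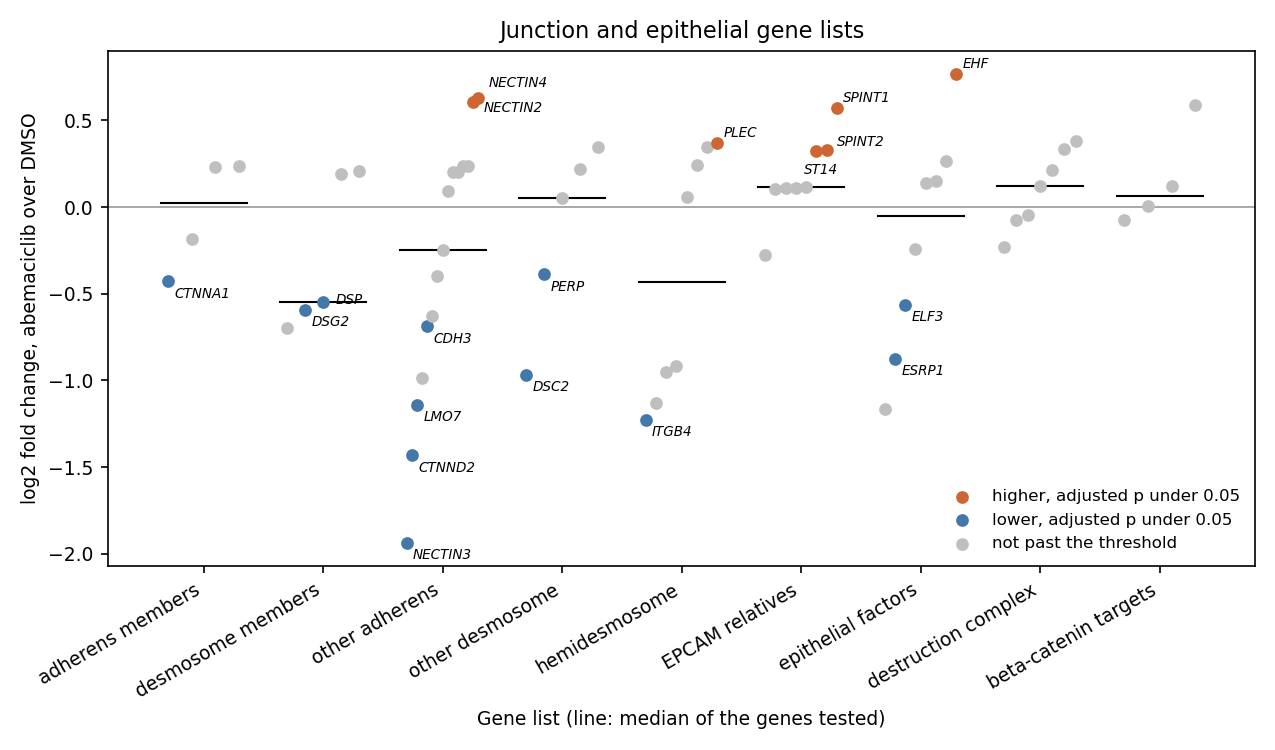
Log2 fold changes of the genes tested in each list, with called genes named and coloured (orange higher, blue lower) and the list median as a line. The 5 desmosome members spread from −0.70 (PKP2, not called) to 0.21 (PKP3), the 4 adherens junction members from −0.43 to 0.24, and no gene of the destruction complex or the β-catenin targets is coloured.

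Among transcription and splicing factors that maintain epithelial identity, 8 were tested, of which 1 was higher (12.5%) and 2 lower (25%). Over all genes tested these shares were 12.5% and 13.3%, and so few genes carry no result about the group. EHF, an epithelial ETS factor, rose from 298 ± 14.5 to 506 ± 51.1 CPM (SD, n = 3 in each group; log2 fold change 0.77, adjusted p = 5.86e-07). Its relative ELF3 fell by 0.56 (adjusted p = 0.000553), and ESRP1, an epithelial splicing regulator, fell by 0.88 (adjusted p = 0.000431). The other 5 did not pass the threshold.

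Of 7 mesenchymal markers, VIM, CDH11, SPARC and MMP2 were at 0 in every library. FN1, fibronectin, had 10, 2 and 9 counts in the DMSO libraries and 16, 9 and 12 in the abemaciclib libraries and was not tested, and S100A4 had 78 counts in all and was not called (log2 fold change −0.27, adjusted p = 0.752). CDH2, N-cadherin, named like these after its values were seen, was detected at 31.9 ± 4.45 CPM with DMSO and 24.7 ± 1.02 CPM with abemaciclib (SD, n = 3 in each group). It was not called (log2 fold change −0.37, adjusted p = 0.163), though every abemaciclib library lay below every DMSO library. Because β-catenin has a separate role in Wnt signalling, its destruction complex and its targets were also counted. Of 7 destruction complex genes, 0 were called (without adjustment, p was below 0.05 for 1 with higher and 1 with lower values, and DESeq2 called 0), and of 10 targets, 4 were tested and 0 called (0 without adjustment at p below 0.05, and 0 by DESeq2). Without DMSO replicate 2, 1 destruction complex gene was called higher, and 1 target was called lower when no low-count filter was used and in 4 of the 6 fits that left out a library. Before adjustment, 2 targets were lower at p below 0.05 with DESeq2, and 2 with edgeR when no low-count filter was used.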

How the data were processed

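The deposited files hold raw counts per gene, which the authors made from 3′ mRNA libraries of 6 samples, 3 given DMSO and 3 abemaciclib. Per the submitters' processing notes, reads were aligned to hg38 with STAR 2.7.5b and counted with featureCounts 2.0.1; the strand setting is not given in the sources used here, and the labels and the study's methods name different directions of the kit. Total counts were 3317860 to 4013156 per library, so a count of 0 allows up to 0.740 to 0.909 CPM, covering counting error only.

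Groups followed the labels. Genes passing filterByExpr (10863) were scaled by TMM and tested with edgeR 4.0.16 (quasi-likelihood, two-sided) in R 4.3.3, adjusting p-values by Benjamini-Hochberg across these genes (threshold 0.05). Standard errors were derived from the F statistic. The scripts were tested on simulated data. The alternatives were DESeq2 1.42.0, other scalings, other low-count filters, a replicate block and leaving out each of the 6 libraries. Replicates of a group differed by more than sampling noise.

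The members and gene lists were chosen with earlier results of these data known. All members were named, with the called genes of each other list (up to 4 in a direction), the CDH1 repressors, the desmosomal cadherins and MKI67; 1 further gene of the rule is not reported here. Gene coordinates are from GENCODE release 44 on GRCh38; the release behind the counts was not compared. Promoters are from RefSeq. Deviations of same-numbered replicates showed no clear correlation, which does not exclude a pairing.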

Additional observations from a re-analysis of the deposited data

How the results depend on the processing

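CTNNA1, DSG2 and DSP were called lower in all 12 alternatives. DESeq2 called 1 member higher, CDH1 (log2 fold change 0.25, adjusted p = 0.0476). Leaving out each library in turn, 0 members were higher and 3 to 4 lower, EPCAM being added without DMSO replicate 1 or abemaciclib replicate 3. The members' median log2 fold change then ranged from −0.35 (without DMSO replicate 1) to −0.056 (without DMSO replicate 3), and 3 to 6 other junction genes were higher, 3 without DMSO replicate 3. The log2 fold change of CTNND1 ranged from −0.31 to 0.039 and changed sign without DMSO replicate 3. The cause was not tested. Over all genes, 981 to 1412 were higher and 1132 to 1529 lower across alternatives. PKP2 gave no value with a minimum of 10 counts in every library. With the replicate block, 0 members were higher and 3 lower, with a median of −0.22, and 4 other junction genes were higher (PLEC and ST14 were lost) and 7 lower. Deviations of same-numbered libraries correlated at −0.049, 0.007 and −0.096, and those of differently numbered libraries at −0.059 to 0.104. With 3 libraries per group, these values cannot show whether the numbers mark a pairing. At this depth, genes near PKP2's level had intervals too wide to show a change of the size seen in DSG2.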
